A study of Rattus norvegicus with 10 samples.

Results

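The complement system and the coagulation system are 2 protease cascades of the blood plasma, and the liver makes most of their proteins. The 37 genes followed here code for complement components (C2, C3, C5, C6, C8a, C8b, C8g, C9, C1s, Cfb, Cfd, Masp1, Masp2, Mbl1, Mbl2), complement regulators (Cfi, C4bpa, C4bpb, Serping1, Vtn), clotting factors and contact proteins (F2, F5, F7, F9, F10, F11, F12, F13b, Klkb1, Kng1), anticoagulants (Proc, Pros1, Serpinc1, Serpind1) and proteins of fibrinolysis (Plg, Serpinf2, Cpb2). They were chosen by symbol, and a probe was taken as theirs where its accession belongs to that symbol. Of the 37 genes, 32 had such a probe, with 43 probes in all among the 41012 of the array, which named 13837 genes. C5, C8g, F5, F11 and F13b had none and were not analysed here. All 43 probes lay well above background on all 10 arrays, so all 32 genes passed the filter on dim probes and were tested.

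Liver RNA of male Sprague Dawley rats was hybridized to one-colour Agilent arrays, 1 array per rat. The control group (n = 3) received the solvent, propylene glycol, under the skin of the back. The SM group (n = 4) received sulfur mustard, an alkylating blister agent, once at 3.5 mg/kg (0.7 LD50) by the same route. The SM+MSTF group (n = 3) received the same SM dose and, 1 h later, MSTF at 120 mg/kg by mouth. MSTF joins salvianolic acids, taken from Salvia miltiorrhiza, with the flavonoid fraction of Anemarrhena asphodeloides. All livers were taken at 24 h, no age is given for the rats, and no group given MSTF without SM was analysed here. Whole liver was measured, so fewer cells of a type and less RNA per cell cannot be told apart.

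Of the 3 slides, slide 1 carried the control arrays together with the third SM+MSTF replicate, the SM arrays made up slide 2, and the remaining SM+MSTF replicates were on slide 3. The SM group and slide 2 cannot be told apart. Between 51.9% and 61.4% of the probes of an array were well above background, and no spot was saturated. The 10 hepatocyte marker genes, albumin and transferrin among them, had mean log2 signals of 16.3 to 16.41 in control livers, 16.27 to 16.46 after SM and 16.24 to 16.39 after SM and MSTF. None of these markers was called, but 3 of the 10 (30%) had an unadjusted p under 0.05 in SM+MSTF versus control, beside 9.54% of all tested probes. Ttr (transthyretin, log2 fold change -0.49) and Apoa1 (an apolipoprotein, -0.43) were lower and Apob (another, 0.32) higher, each without overlap between the groups and with adjusted p of 0.423, 0.423 and 0.477 by limma.

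Complement is started by 3 routes, the classical, lectin and alternative pathways, which meet at the cleavage of C3 and end in the membrane attack complex built from C5b to C9. Clotting runs from factor VII (with tissue factor) or from the contact system (factor XII, plasma prekallikrein and high molecular weight kininogen) to factor X and thrombin. Antithrombin, protein C and protein S restrain it, and plasmin dissolves the clot. Several of these proteins are acute phase proteins, whose genes hepatocytes switch up through C/EBP and STAT factors after inflammatory signals, and HNF1 and HNF4 keep many liver genes active.

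Promoter windows of 250 bases before to 50 bases after the gene start, credited to RefSeq (build GRCr8), were matched for 28 of the 37 genes. C2, C8g, C9, Cfb, C1s, Masp2, Serping1, Serpind1 and Cpb2 were not matched. The windows of Kng1 and its neighbour Kng2 are shown because the probes of this gene pair gave the widest differences between SM+MSTF and control among the genes of both systems. The capitals mark a stretch of 144 bases that both windows hold with 143 identical bases (99.3%) and a longest identical run of 87. It spans bases 1 to 144 of the Kng1 window and 156 to 299 of the Kng2 window, at a different distance from each gene start. The genes themselves were not compared.
Kng1, chr11:91340099-91340398, minus strand: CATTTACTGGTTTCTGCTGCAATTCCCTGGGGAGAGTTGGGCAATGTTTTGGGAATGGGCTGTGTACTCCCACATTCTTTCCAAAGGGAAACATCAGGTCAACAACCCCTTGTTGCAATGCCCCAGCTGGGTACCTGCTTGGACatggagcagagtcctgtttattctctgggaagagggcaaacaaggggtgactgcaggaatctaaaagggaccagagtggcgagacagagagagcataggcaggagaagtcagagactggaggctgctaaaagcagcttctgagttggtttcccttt
Kng2, chr11:91418220-91418519, plus strand: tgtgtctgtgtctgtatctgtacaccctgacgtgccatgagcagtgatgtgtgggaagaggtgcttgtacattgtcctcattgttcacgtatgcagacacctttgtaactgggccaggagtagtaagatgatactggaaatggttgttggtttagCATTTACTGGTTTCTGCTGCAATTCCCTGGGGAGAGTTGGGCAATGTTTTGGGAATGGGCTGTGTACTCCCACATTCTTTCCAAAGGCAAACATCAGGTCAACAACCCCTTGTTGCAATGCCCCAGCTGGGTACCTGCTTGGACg

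The 4 short motifs of the next sentences were searched on both strands of every window. TTNNGNAA, a C/EBP-like sequence, was held by 18 of the 28 windows (64.3%) and by 41.3% of all 33469 promoter windows of the same length. GTTAAT, a half-site of HNF1, was held by 8 of 28 (28.6%: C4bpa, C4bpb, C5, C8a, F13b, F2, Plg and Proc) and by 7.45% of all windows. TTCNNNGAA, the STAT sequence, was held by 5 of 28 (17.9%: C4bpb, C8a, F9, Pros1 and Vtn) and by 8.87% of all. AAAGTCCA, a core of HNF4 sites, was held by 0 of 28 and by 1.37% of all. A match describes letters and is not a site.

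The windows of C4bpb, which held 3 of these motifs, and of Serpinc1, which held 1, are shown as examples of a window with several motifs and one with few. Capitals mark TTCNNNGAA, TTNNGNAA and GTTAAT on either strand, and no matches overlap.
C4bpb, chr13:44683732-44684031, minus strand: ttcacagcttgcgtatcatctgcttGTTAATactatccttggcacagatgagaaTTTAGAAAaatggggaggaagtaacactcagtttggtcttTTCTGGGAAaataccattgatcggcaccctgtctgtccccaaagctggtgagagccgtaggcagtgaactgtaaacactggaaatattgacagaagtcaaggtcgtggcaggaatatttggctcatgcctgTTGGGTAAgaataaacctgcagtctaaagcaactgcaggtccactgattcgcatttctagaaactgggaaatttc
Serpinc1, chr13:75790308-75790607, plus strand: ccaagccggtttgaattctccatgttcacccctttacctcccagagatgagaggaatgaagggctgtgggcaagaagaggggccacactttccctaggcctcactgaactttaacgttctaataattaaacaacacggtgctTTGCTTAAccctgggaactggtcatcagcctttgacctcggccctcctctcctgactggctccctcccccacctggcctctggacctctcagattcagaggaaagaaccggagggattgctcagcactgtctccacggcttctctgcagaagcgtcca

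In none of the 3 comparisons was any of the 32 genes called, that is at an adjusted p under 0.05 and at least 1.5-fold. The fit was 1 limma model over the 22991 tested probes, with Benjamini-Hochberg adjustment over all of them. Of all tested probes, SM against control called 2.41%, SM+MSTF against control 0% and SM+MSTF against SM 1.26%. The smallest adjusted p among the 32 genes (limma) was 0.187 for SM and 0.424 for SM+MSTF, each against control, and 0.259 for SM+MSTF against SM. Before adjustment, 1 gene (3.12%; F12) had p under 0.05 in SM versus control, where 16.4% of all probes did. In SM+MSTF versus control 4 genes did (12.5%; Kng1, C9, Cfb and Serpinc1), beside 9.54% of all probes. In SM+MSTF versus SM 3 genes did (9.38%; C1s, F9 and Serpinc1), beside 15.9% of all probes.

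Compared to the control, 18 of 32 genes were higher in the SM group and 14 lower, with a median log2 fold change of 0.03, and the median over all tested probes was also 0.03. In the SM+MSTF group 27 of 32 genes (84.4%) were higher than the control, with a median of 0.17, where 50.9% of all probes were higher with a median of 0.00. Against the SM group, 24 of 32 (75%) were higher in SM+MSTF, with a median of 0.16, where 46.4% of all probes were higher with a median of -0.02. The last 2 comparisons share the SM+MSTF arrays, and the first 2 share the controls. The 18 complement genes and regulators had median log2 fold changes of 0.02 (SM against control), 0.23 (SM+MSTF against control) and 0.22 (SM+MSTF against SM). The 14 coagulation and fibrinolysis genes had medians of 0.05, 0.15 and 0.10.

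The 95% interval of the change lay within 1.5-fold either way for 26 of 32 genes (SM against control), 17 (SM+MSTF against control) and 19 (SM+MSTF against SM), and within 2-fold for 30, 28 and 29. The standard errors of these fold changes had medians of 0.135, 0.144 and 0.135. The genes whose interval in SM versus control reached past 1.5-fold were Kng1, Klkb1, F7, Masp1, C1s and C9.

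**Figure D1:**
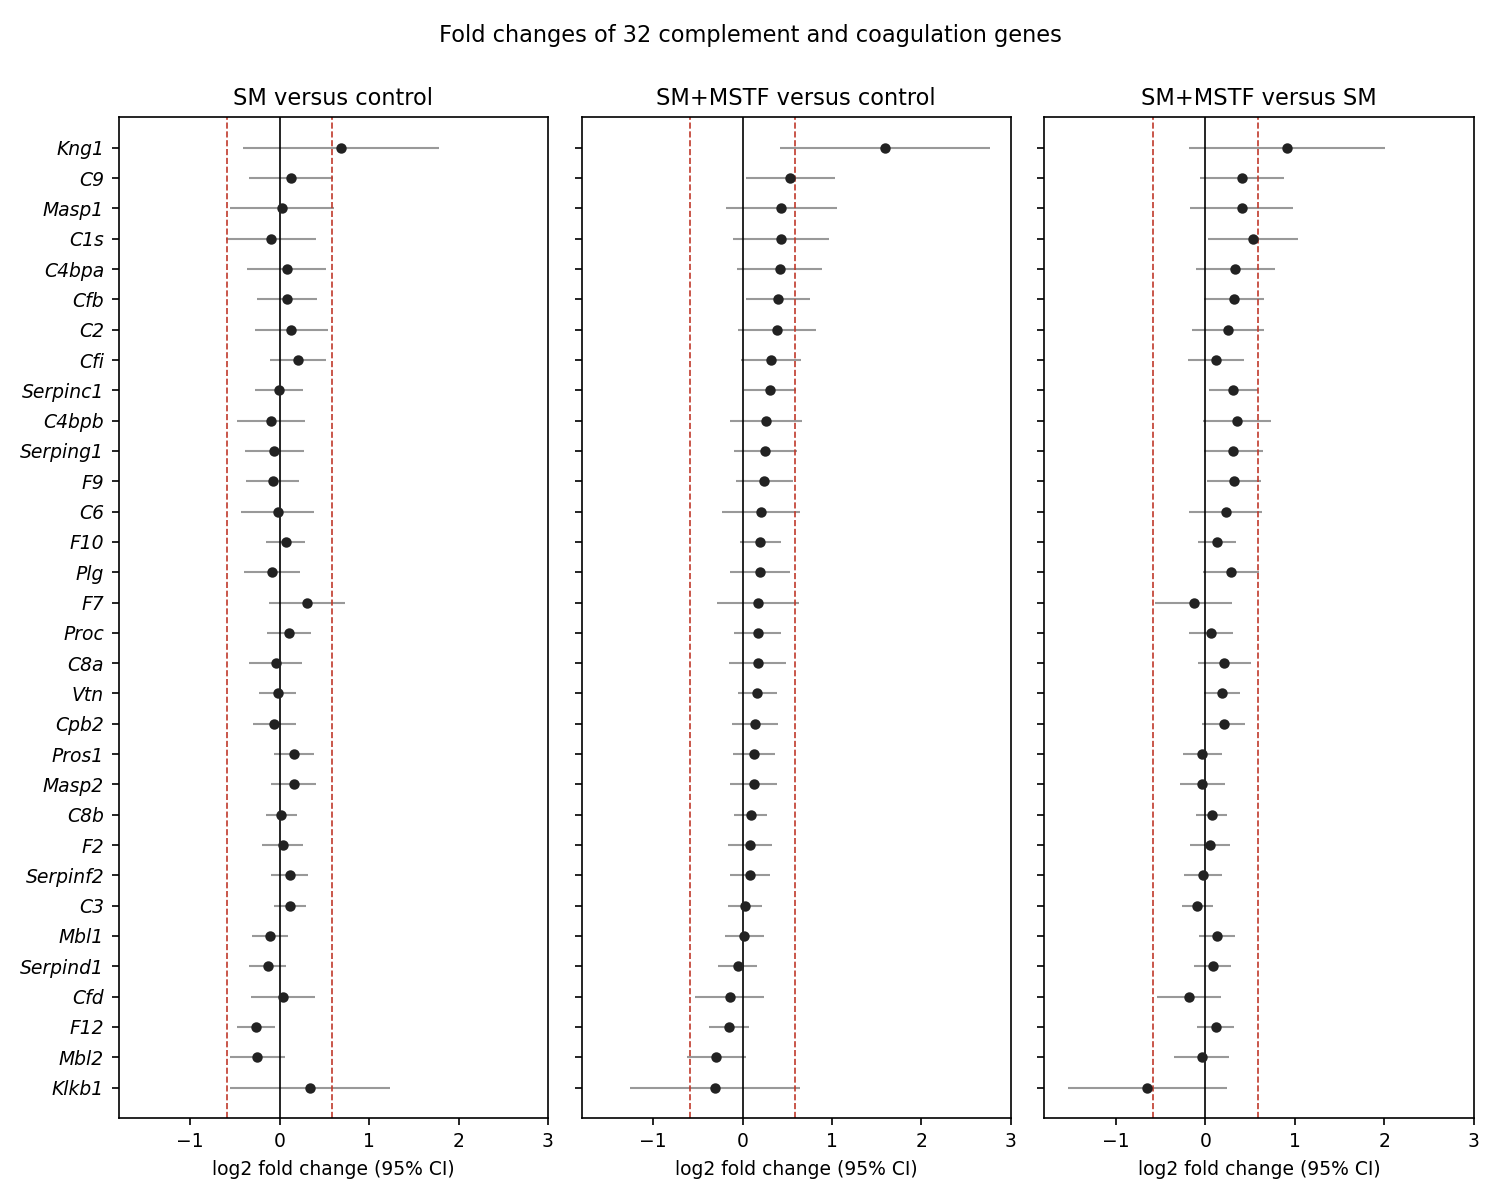
Log2 fold change (x axis) of the 32 genes (y axis, ordered by SM+MSTF versus control) in the 3 comparisons; points are limma estimates, grey bars 95% confidence intervals and dashed lines 1.5-fold. The points of SM versus control lie around 0, those of SM+MSTF versus control lie mostly to the right of 0, and Kng1 is the farthest to the right with 1.60.

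The single arrays of the SM+MSTF group differed from each other. As the median over the 32 genes of the log2 difference from the control mean, SM+MSTF replicate 1 stood at 0.13, replicate 2 at 0.01 and replicate 3 at 0.33. The SM arrays stood at 0.03, -0.00, -0.08 and 0.12, and the controls, which set the zero, at -0.05, 0.03 and 0.03. SM+MSTF replicate 3 had the highest value of all 10 arrays in 21 of the 32 genes. It was also the array with the most genes at least 1.5-fold above the control mean, 8 in all (C2, C9, Cfb, Masp1, C1s, C4bpa, Klkb1 and Kng1), against 2 on replicate 1 (C9 and Kng1) and 0 on replicate 2. On the SM arrays Kng1 was the gene past that line, on replicates 1 and 4. Over all tested probes the median difference from the control mean was -0.01 on SM+MSTF replicate 3, a value that bringing all arrays to the same quantiles holds near 0. How many of all tested probes peaked or passed 1.5-fold on this array was not counted. The counts above therefore cannot be called particular to the 32 genes.

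SM+MSTF replicate 3 is the array that shares a slide with the controls, so its difference from them is the only one within a slide, and it rests on 1 rat. Without it the median of SM+MSTF versus control was 0.09 in place of 0.17, and that of SM+MSTF versus SM 0.09 in place of 0.16. With slide as a fixed block, where this array alone carries the comparison with the controls, the median was 0.33 and 1 gene was called (Cfb, log2 fold change 0.79, adjusted p = 0.0416 by limma). The same setting called 291 of all 22991 tested probes, where the main fit called 0.

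**Figure D2:**
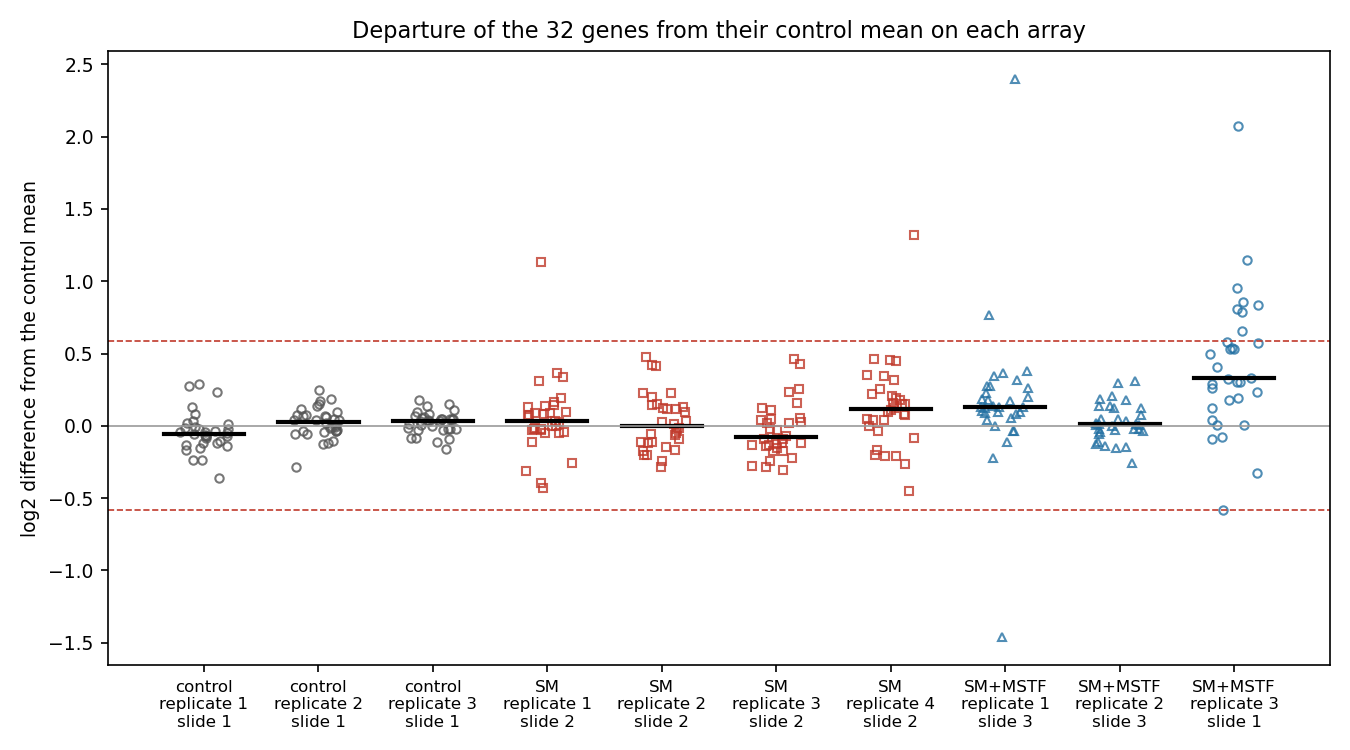
Log2 difference of each of the 32 genes from its control mean (y axis) on each of the 10 arrays (x axis); marker shapes stand for the slides, black bars are medians over the genes and dashed lines 1.5-fold. SM+MSTF replicate 3 has the highest median, 0.33, while replicate 2 of the same group lies at 0.01.

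The spread between rats was smallest in the controls. The median over genes of the standard deviation of log2 signal was 0.0834 in the control group, 0.145 in the SM group and 0.203 in the SM+MSTF group. The controls lie on 1 slide, as do the SM arrays, while the SM+MSTF arrays lie on 2, and the part of the slide in this was not tested.

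Of the contact system, Kng1 codes for kininogen, the precursor of bradykinin and the carrier of prekallikrein. Its log2 signal was 15.29, 15.35 and 15.29 on the control arrays, 16.44, 15.73, 15.19 and 16.63 on the SM arrays, and 17.71, 15.62 and 17.39 on the SM+MSTF arrays. All SM+MSTF arrays and 3 of 4 SM arrays lay above the controls, whose own SD was 0.0348, and within each treated group the rats spread over more than 2-fold. SM+MSTF was higher than the control by 1.60 on the log2 scale (SE 0.523, 3.02-fold), with an adjusted p of 0.424 by limma. It was the one gene of the 32 with both an unadjusted p under 0.05 (0.0128 by limma) and a change of at least 1.5-fold. In SM+MSTF versus control, 692 of all 22991 tested probes met both conditions. SM exceeded the control by 0.69 (SE 0.489, adjusted p = 0.541 by limma) and SM+MSTF exceeded SM by 0.91 (SE 0.489, adjusted p = 0.382 by limma).

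Kng2 codes for another kininogen, the rat T-kininogen, an acute phase protein and cysteine protease inhibitor, and its cDNA is close to that of Kng1. The probes of the pair can share target, so these signals cannot be assigned to 1 gene. The first Kng2 probe gave 15.52, 15.59 and 15.48 on the control arrays, 16.66, 15.87, 15.37 and 16.77 on the SM arrays, and 17.75, 15.89 and 17.44 on the SM+MSTF arrays. The second gave 15.28, 15.15 and 15.15, then 16.2, 15.35, 15.05 and 16.26, then 17.21, 15.31 and 17.09. As with the Kng1 probe, SM+MSTF replicates 1 and 3 were highest in both and SM replicate 3 was lowest. SM+MSTF versus control gave log2 fold changes of 1.5 (SE 0.487) and 1.34 (SE 0.49), with adjusted p of 0.424 and 0.458 by limma.

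Klkb1 codes for plasma prekallikrein, which is bound to kininogen in plasma. The prekallikrein probe gave 13.86, 13.79 and 13.89 in the controls, 13.8, 14.32, 14.31 and 14.31 in the SM group, and 12.38, 13.72 and 14.51 in the SM+MSTF group. SM+MSTF replicate 1, the array with the highest Kng1 signal, had the lowest Klkb1 signal, and replicate 3 had the highest of all 10 arrays. The groups overlapped, and SM+MSTF versus SM gave -0.65 (SE 0.397, adjusted p = 0.437 by limma).

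**Figure D3:**
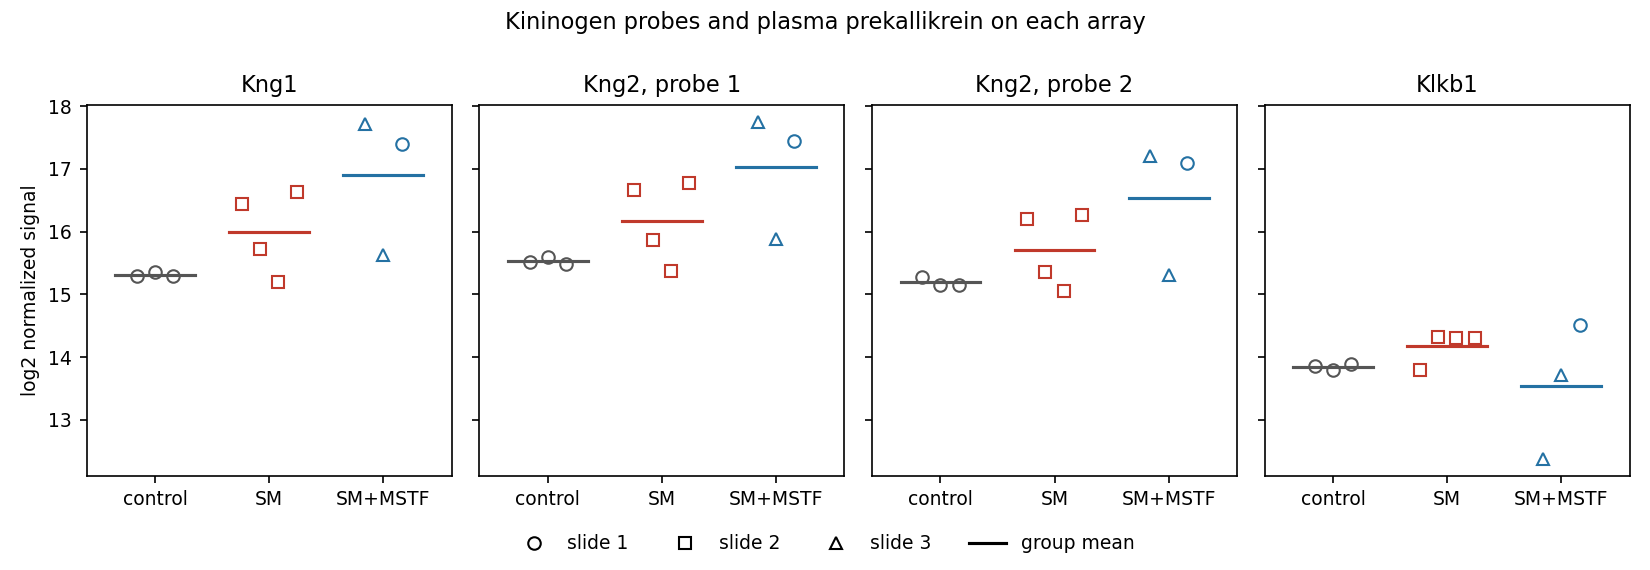
Log2 normalized signal (y axis) of the Kng1 probe, both Kng2 probes and the Klkb1 probe on each array, by group (x axis); marker shapes stand for the slides and lines are group means. On all 3 kininogen probes SM+MSTF replicates 1 and 3 are highest and SM replicate 3 is lowest, with controls between 15.15 and 15.59. Klkb1 lies lowest (12.38) on SM+MSTF replicate 1, where kininogen is highest, and highest (14.51) on SM+MSTF replicate 3.

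F12 codes for factor XII, the protease that opens the contact pathway. Factor XII signal was 16.53, 16.55 and 16.42 in the controls, 16.07, 16.3, 16.33 and 16.24 in the SM group, and 16.28, 16.36 and 16.41 in the SM+MSTF group. Every SM and SM+MSTF array lay below every control array. SM versus control was -0.27 on the log2 scale (SE 0.0932, adjusted p = 0.187 by limma), and its interval, -0.47 to -0.06, left out a change of 1.5-fold. SM+MSTF versus control was -0.15 (SE 0.0996, adjusted p = 0.655 by limma). The second F12 probe gave -0.13 and 0.06, so its sign differed in SM+MSTF versus control.

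F9 codes for factor IX, the vitamin K dependent protease missing in haemophilia B. Log2 signals of its brighter probe were 14.71, 14.47 and 14.54 in the controls, 14.65, 14.41, 14.44 and 14.49 in the SM group, and 14.75, 14.59 and 15.12 in the SM+MSTF group. SM+MSTF replicate 3 stood above the rest and the other values overlapped. SM+MSTF versus SM was 0.32 (SE 0.134, adjusted p = 0.286 by limma), and the second probe gave -0.19 (SE 0.202). The probes thus differed in sign for F9 in all 3 comparisons.

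Of the other clotting factors, F2 (prothrombin), F7 and F10 had log2 fold changes of 0.04, 0.30 and 0.07 for SM against control and 0.09, 0.17 and 0.20 in SM+MSTF versus control. F10 did not overlap between SM+MSTF and control, with 14.51, 14.69 and 14.67 in the controls against 14.76, 14.74 and 14.95. The shift was 0.20 (SE 0.103, adjusted p = 0.576 by limma). F7 spread over 9.79 to 10.23 in the controls and 9.8 to 10.53 in the SM+MSTF group.

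Serpinc1 codes for antithrombin, the main inhibitor of thrombin and factor Xa. Antithrombin signal was 14.22, 14.37 and 14.49 in the controls, 14.36, 14.56, 14.08 and 14.41 in the SM group, and 14.68, 14.65 and 14.66 in the SM+MSTF group. The SM+MSTF arrays lay within 0.03 of each other, on both of their slides, and above every array of the other groups. SM+MSTF was higher than the control by 0.30 (SE 0.13, adjusted p = 0.504 by limma) and higher than SM by 0.31 (SE 0.121, adjusted p = 0.259 by limma), while SM versus control was -0.01 (SE 0.121). By the brightest probe of each gene, antithrombin alone had an unadjusted p under 0.05 in both comparisons of the SM+MSTF group. The values by limma were 0.0414 and 0.0282. A dimmer probe of C1s (0.0347 and 0.035 by limma) and 1 of Masp2 (0.0193 and 0.021) also had p under 0.05 in both.

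The other anticoagulants were Proc (protein C), Pros1 (protein S, its cofactor) and Serpind1 (heparin cofactor II). Their log2 fold changes were 0.11, 0.16 and -0.14 for SM against control and 0.17, 0.13 and -0.06 in SM+MSTF versus control. Pros1 was the one gene whose SM arrays all lay above the controls, with 10.68, 10.74 and 10.58 in the controls and 10.8, 10.82, 10.83 and 10.86 in the SM group. That difference was 0.16 (SE 0.0985, adjusted p = 0.468 by limma), and on the second Pros1 probe it was 0.03, with overlap.

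Of fibrinolysis, Plg (plasminogen), Serpinf2 (alpha 2 antiplasmin) and Cpb2 (the fibrinolysis inhibitor TAFI) had log2 fold changes of -0.09, 0.11 and -0.06 for SM against control and 0.20, 0.09 and 0.14 in SM+MSTF versus control. Plg gave 13.19, 13.18 and 13.24 in the SM+MSTF group, above 12.77, 13.14 and 13.1 in the controls and 12.61, 13.02, 12.91 and 13.13 in the SM group. The SM+MSTF arrays did not overlap with either group, at 0.29 over SM (SE 0.139, adjusted p = 0.345 by limma).

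Of the complement pathways that begin the cascade, C1s is the effector protease of the classical pathway. Its log2 signal was 14.05, 14.66 and 14.52 in the controls, 14.39, 14.13, 14.17 and 14.56 in the SM group, and 14.54, 14.62 and 15.37 in the SM+MSTF group. SM+MSTF was higher than SM by 0.53 (SE 0.224, adjusted p = 0.294 by limma), and the second probe gave 0.47 (SE 0.193). The highest array on both probes was SM+MSTF replicate 3. Replicates 1 and 2 lay within the range of the controls on the first probe, but on the second, at 12.32 and 12.38, they lay above every control (highest 12.28) and every SM array (highest 12.31).

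C2, which gives the protease of the C3 convertase of the classical and lectin pathways, had log2 fold changes of 0.13 for SM against control and 0.38 in SM+MSTF versus control (SE 0.194). Masp1 and Masp2, proteases of the lectin pathway, had 0.03 and 0.16 for SM against control and 0.43 and 0.12 in SM+MSTF versus control. Masp1 was at 13.42 on SM+MSTF replicate 3 and between 12.06 and 12.58 on the other 9 arrays, and its other probes gave 0.18 and 0.20 in SM+MSTF versus control. The other Masp2 probes gave 0.28 and 0.12 there. In SM+MSTF versus SM the Masp2 probes differed in sign, with -0.03 for the brightest and 0.25 and -0.04 for the others. Mbl1, a mannose-binding lectin, had -0.11 for SM against control and 0.02 in SM+MSTF versus control.

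Mbl2, the other mannose-binding lectin of the rat liver, was the complement gene with the lowest log2 fold change against the control in both treated groups. Its log2 signal was 11.28, 11.25 and 11.33 in the controls, 11.02, 11.17, 11.11 and 10.83 in the SM group, and 11.24 and 11.03 in SM+MSTF replicates 1 and 2. SM+MSTF replicate 3 was the lowest of all 10 arrays, with a difference of -0.58 from the control mean. All 7 treated arrays lay below the 3 controls, although SM+MSTF replicate 1 was within 0.01 of the lowest control. SM versus control came to -0.25 on the log2 scale (SE 0.136, adjusted p = 0.412 by limma) and SM+MSTF versus control to -0.29 (SE 0.145, adjusted p = 0.561 by limma).

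Cfb codes for factor B, the protease of the alternative pathway. On the log2 scale it read 15.66, 15.81 and 15.84 in the controls, 15.87, 15.75, 15.82 and 15.99 in the SM group, and 16.05, 15.91 and 16.56 in the SM+MSTF group. All SM+MSTF arrays lay above the controls, by 0.40 on average (SE 0.16, adjusted p = 0.483 by limma). Cfd, which codes for factor D, the protease that cleaves factor B and a product of fat cells more than of liver, had 0.04 for SM against control and -0.14 in SM+MSTF versus control.

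C3, the centre of the cascade, was among the most even genes. Its log2 signal was 18.3, 18.34 and 18.4 in the controls, 18.52, 18.49, 18.4 and 18.43 in the SM group, and 18.43, 18.33 and 18.35 in the SM+MSTF group. The interval of SM versus control was -0.07 to 0.29 and that of SM+MSTF versus control -0.17 to 0.21, both within 1.5-fold. These signals lay near the top of the scale, where arrays brought to the same quantiles can take the same value. A control and an SM array shared a C3 difference of 0.0533 from the control mean, and an SM and an SM+MSTF array shared 0.0835. The brighter transferrin gene (Tf) read 18.72 on every SM+MSTF array, with an SD of 0. The part of the normalization in the evenness of C3 was not tested.

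C9, the subunit that forms the pore of the membrane attack complex, had a log2 signal of 15.83, 16.15 and 15.96 in the controls, 16.06, 15.93, 16 and 16.44 in the SM group, and 16.75, 15.99 and 16.82 in the SM+MSTF group. As with kininogen, SM+MSTF replicates 1 and 3 were highest and SM replicate 4 came next. Unlike kininogen, C9 on SM+MSTF replicate 2 lay among the controls. SM+MSTF versus control was 0.54 (SE 0.223, adjusted p = 0.497 by limma). The other measured terminal components, C6, C8a and C8b, had log2 fold changes of -0.02, -0.04 and 0.02 for SM against control and 0.20, 0.17 and 0.09 in SM+MSTF versus control.

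The 5 regulators all had positive log2 fold changes in SM+MSTF versus control, from 0.16 to 0.41, and in SM+MSTF versus SM, from 0.12 to 0.36, and no gene passed the test. Serping1, the C1 inhibitor, which also inhibits kallikrein and factor XIIa, gave 17.61, 17.89 and 17.82 in the controls, 17.75, 17.53, 17.64 and 17.92 in the SM group, and 18, 17.77 and 18.3 in the SM+MSTF group. The groups overlapped, with 0.31 over SM (SE 0.147, adjusted p = 0.333 by limma). The second Serping1 probe gave 12.5, 12.34 and 13.01 in the SM+MSTF group, above all controls (highest 12.26), with a log2 fold change of 0.55 (SE 0.197, adjusted p = 0.45 by limma). C4bpb, the beta chain of C4b-binding protein, which binds protein S, gave 15.17, 15.59 and 15.45 in the controls, 15.1, 15.23, 15.25 and 15.66 in the SM group, and 15.53, 15.53 and 15.93 in the SM+MSTF group. It was 0.36 over SM (SE 0.168, adjusted p = 0.335 by limma), also with overlap.

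Cfi codes for factor I, the protease that inactivates C3b and C4b. Factor I signal was 17.02, 17.1 and 17.14 in the controls, 17.42, 17.2, 17.13 and 17.4 in the SM group, and 17.45, 17.1 and 17.67 in the SM+MSTF group. SM+MSTF versus control was 0.32 (SE 0.15, adjusted p = 0.538 by limma) and SM versus control 0.20 (SE 0.14, adjusted p = 0.529 by limma), with 1 array of each treated group among the controls. Vtn codes for vitronectin, which blocks insertion of the terminal complex. Its signal was 17.72, 17.72 and 17.77 in the controls, 17.71, 17.65, 17.65 and 17.85 in the SM group, and 17.87, 17.82 and 18.03 in the SM+MSTF group. All SM+MSTF arrays lay above the controls, by 0.16 on average (SE 0.0971, adjusted p = 0.621 by limma). C4bpa, the alpha chain of C4b-binding protein, had 0.08 for SM against control and 0.41 in SM+MSTF versus control (SE 0.211).

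**Figure D4:**
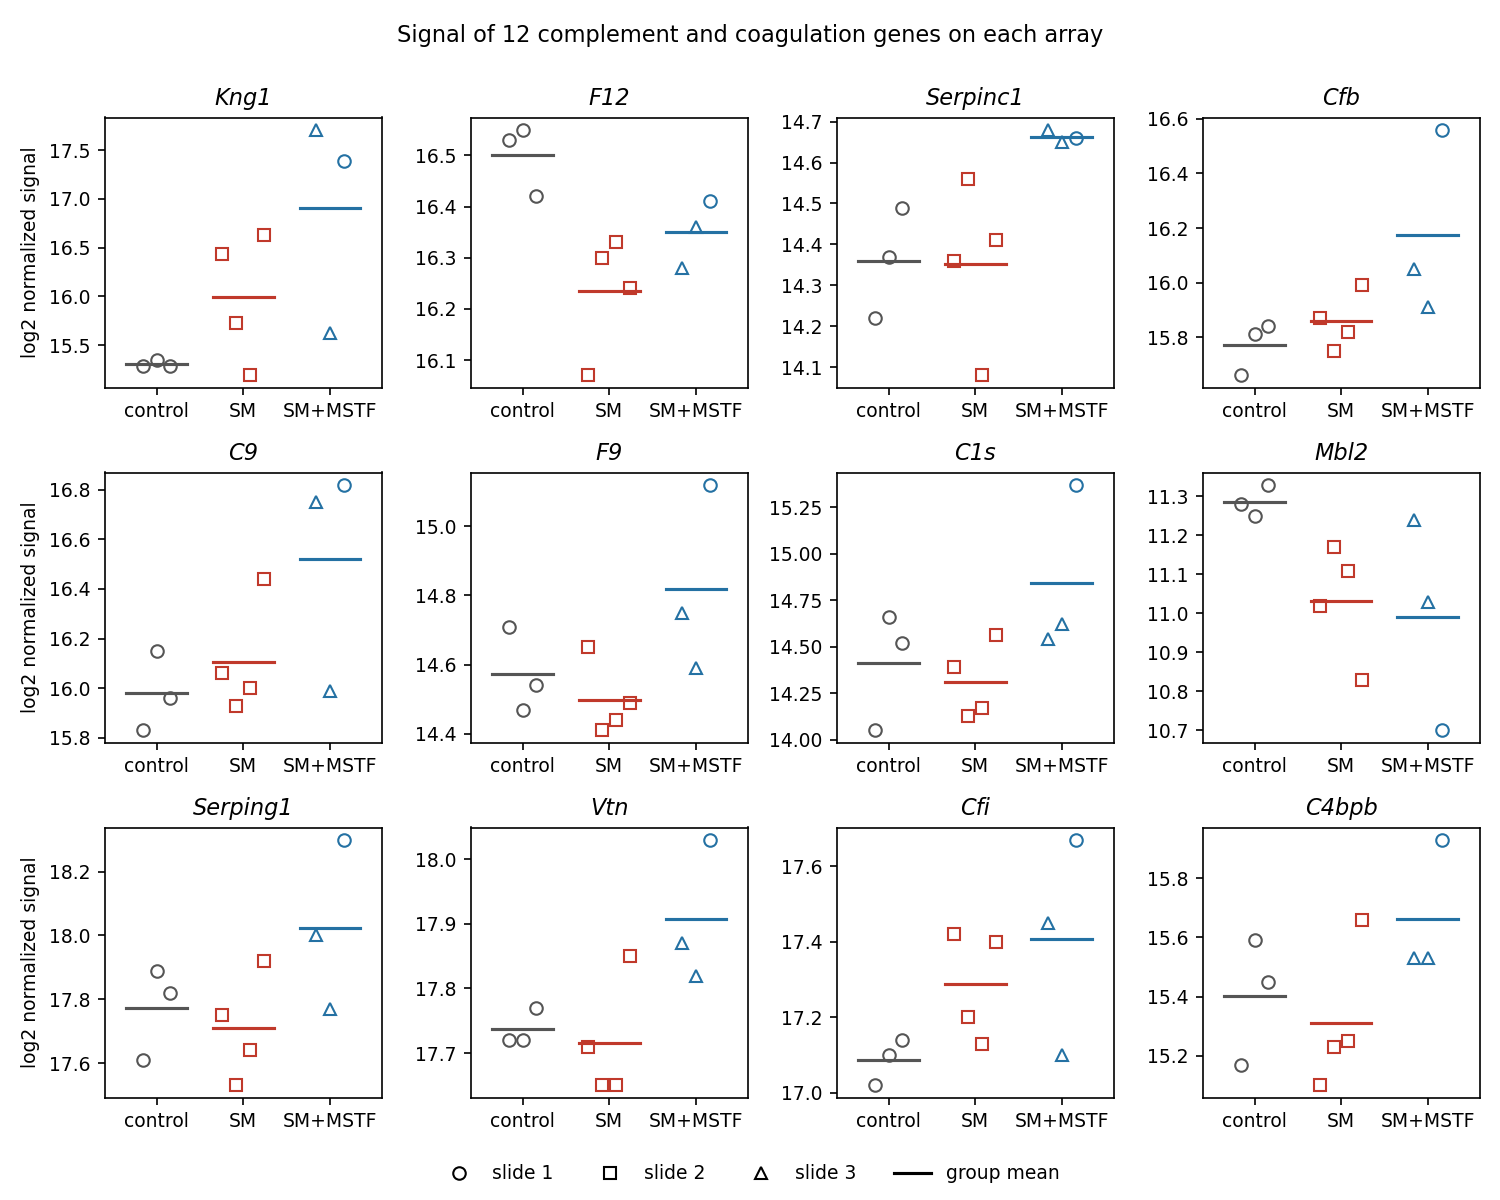
Log2 normalized signal (y axis, own range in each panel) on each array by group (x axis) for the 12 genes given array by array; marker shapes stand for the slides and lines are group means. SM+MSTF replicate 3, the open circle among the SM+MSTF arrays, is the highest point in 8 of the 12 panels, while the 3 SM+MSTF values of Serpinc1 lie together above all others.

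Groups did not overlap for 3 of the 32 genes in SM versus control (Pros1 higher, F12 and Mbl2 lower; 9.38%), where 18.0% of all probes did not overlap. They did not for 8 in SM+MSTF versus control (25%; Kng1, Cfb, F10, Serpinc1, Plg and Vtn higher, F12 and Mbl2 lower), beside 15.4% of all probes. In SM+MSTF versus SM they did not for 3 (9.38%; C8b, Serpinc1 and Plg higher), beside 14.7% of all probes. These counts read each gene from its brightest probe. Among the dimmer probes of the genes with several, those of C1s, Serping1 and 1 of Masp2 were higher without overlap in SM+MSTF versus control, and those of C1s, Serpinf2 and 1 of Masp2 in SM+MSTF versus SM.

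Genes of the same systems outside the 37 showed no calls either. Of 25 other complement genes 18 were tested, and 7 were higher in SM than in control, 14 in SM+MSTF than in control and 15 in SM+MSTF than in SM. C4a, a source of the C3 convertase, gave 13.31, 13.83 and 13.66 in the controls, 13.96, 13.42, 13.5 and 14.55 in the SM group, and 14.27, 14.1 and 14.91 in the SM+MSTF group. Its SM+MSTF arrays lay above the controls, by 0.83 (SE 0.311, adjusted p = 0.466 by limma). Itgam, a chain of complement receptor 3 on myeloid cells, was 1.37 higher in SM+MSTF than in SM (SE 0.48, adjusted p = 0.223 by limma). Against the control, Itgam was at -1.05 in SM (SE 0.48, adjusted p = 0.316 by limma) and at 0.32 in SM+MSTF (SE 0.514). Its log2 signal was low, from 4.28 to 7.27.

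Of 37 other genes of coagulation, fibrinolysis and the kinin system 27 were tested, and 17, 18 and 16 were higher in the 3 comparisons, with Kng2 as the one past 1.5-fold at an unadjusted p under 0.05. Of 13 hepatocyte transcription factors and interleukin-6 receptor chains, 11, 10 and 9 were higher. Cebpb, a C/EBP factor of the acute phase response, gave 8.65, 9.13 and 9.03 in the controls, 9.68, 8.76, 9.46 and 10.1 in the SM group, and 9.72, 9.99 and 9.73 in the SM+MSTF group. Its SM+MSTF arrays all lay above the controls, by 0.88 (SE 0.288, adjusted p = 0.424 by limma).

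None of the tested markers of other liver cells was called in any comparison. The 7 tested markers of Kupffer cells and macrophages had a mean log2 signal of 10.5 to 10.74 in the controls, 10.02 to 10.81 in the SM group and 10.81 to 10.91 in the SM+MSTF group. All 7 were lower in SM than in control, with a median of -0.15. All 7 were higher in SM+MSTF than in control and than in SM, 0 were called, and Marco had the largest difference from SM (0.96, SE 0.273, adjusted p = 0.147 by limma). Before adjustment, 4 of these 7 markers (57.1%) had p under 0.05 by limma in SM+MSTF versus SM, beside 15.9% of all probes. Their part in the values of the complement and coagulation genes was not tested. Pf4, a platelet marker, was 1.02 higher in SM than in control (SE 0.256, adjusted p = 0.0733 by limma). Slc4a1, an erythroid marker, was 0.93 higher (adjusted p = 0.251 by limma), and all 3 tested platelet markers and all 3 tested erythroid markers had positive values there. Of the 5 tested markers of stellate cells and fibroblasts 2 lay higher after SM and 3 lower, compared to the control, with a median of -0.20, from -0.99 for the collagen Col1a1 (adjusted p = 0.235 by limma) to 0.33 for Dcn (decorin). The 6 markers of sinusoidal endothelium lay at 9.192 to 9.385 in the controls, 9.234 to 9.432 in the SM group and 9.154 to 9.47 in the SM+MSTF group. The 2 tested neutrophil markers lay at 6.866 to 7.923, 7.068 to 9.568 and 7.287 to 8.708, and the 2 tested bile duct markers at 7.79 to 8.163, 7.851 to 8.599 and 7.348 to 8.922.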

How the data were processed

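Total RNA of 10 rat livers was labelled with Cy3 and hybridized to Agilent whole-genome rat arrays. The authors read each spot with Feature Extraction 10.7, and the deposited scanner files hold background-subtracted intensity. The authors' deposited log2 values, quantile normalized, served as an alternative. Here control and non-uniform spots were left out, the intensities of all 10 arrays were brought to the same quantiles, log2 transformed and averaged by probe (limma 3.58.1, R 4.3.3). A probe was kept if 1 or more groups had it well above background throughout and each group had 2 or more values, and the probes kept were tested in 1 limma fit without covariates. Accessions were matched to RefSeq symbols for 17512 of 41012 probes. A gene was read from its tested probe of highest mean signal. Array-by-array values are given for genes called, or at unadjusted p under 0.05 and 1.5-fold, filled to 12 genes by the F-test p. Other genes shown array by array were picked after their values were seen. The genes and lists were chosen with earlier results of these data known. The fit was tested on simulated data. Alternatives were 75th percentile scaling, the deposited values, normexp with an offset of 50, other filters, probe rules, call rules and tests, blocks by slide or by replicate number, and the omission of each array in turn. The number of arrays limits the precision. Array signal does not compare levels between genes.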

Additional observations from a re-analysis of the deposited data

Results flagged for a closer look

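In the SM group, the 4 arrays of each of the 32 genes were searched for a value far from the other 3 by Dixon's test at its 95% critical value, which chance alone passes in about 1 in 20 groups. It marked 3 genes, each on a different array. Klkb1 (plasma prekallikrein) had a log2 signal of 13.80 on SM replicate 1 and 14.31 to 14.32 on the other SM arrays. F7 (factor VII) had 9.96 on SM replicate 4 and 10.32 to 10.38 on the others. C8b, a terminal complement component, had 13.38 on SM replicate 3 and 13.44 to 13.45 on the others. The gap made up 0.981, 0.859 and 0.857 of the whole range of the SM arrays.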

How the results depend on the processing

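No complement or coagulation gene was called under any alternative run, apart from the following in SM+MSTF versus control. Slide as a fixed block called 1 of the 32 (Cfb, log2 fold change 0.79) and 291 of all 22991 tested probes. An unadjusted p with the fold minimum called 1 of the 32 (Kng1) and 692 of all tested probes. The methods' t-test with the fold minimum called 0 of the 32 in each comparison, unadjusted or adjusted. The median over the 32 genes kept its sign under all settings run. With 1 array left out it ranged from 0.01 to 0.08 in SM versus control, 0.09 to 0.23 in SM+MSTF versus control and 0.09 to 0.25 in SM+MSTF versus SM, and under the other settings from 0.02 to 0.09, 0.17 to 0.33 and 0.09 to 0.20. Lowest in both SM+MSTF comparisons was the value without SM+MSTF replicate 3. Same-numbered replicates had correlations of -0.0993 to 0.169 between groups, so the numbers were not taken as pairs. With replicate number as a block 0 of the 32 genes were called, and the medians were 0.02, 0.17 and 0.20. For all probes that block took the called probes from 553 to 53 in SM versus control and from 290 to 64 in SM+MSTF versus SM.

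Of 696 recomputed log2 fold changes of the 12 genes, 17 changed sign, all from values near 0 that had passed no test, and the cause was not tested. In SM versus control, 75th percentile scaling gave 0.0916 for Serpinc1, 0.0268 for F9, 0.015 for C1s, 0.0413 for Vtn and 0.0504 for C4bpb. Normexp gave 0.0266 for Serpinc1 and 0.0408 for Vtn, and the deposited values gave 0.0292 for Vtn. The mean over probes gave 0.051 for F9 and 0.0477 for Serping1. With 1 array left out, the range in SM versus control was -0.0787 to 0.0824 for Serpinc1, -0.278 to 0.0264 for C1s and -0.142 to 0.001 for Serping1. In SM+MSTF versus SM it was -0.17 to 0.10 for Mbl2 and -0.0127 to 0.273 for Cfi. The log2 fold change of Kng1 in SM+MSTF versus control was 1.19 when SM+MSTF replicate 1 was dropped and 2.24 when replicate 2 was, and over the arrays left out its adjusted p by limma ran from 0.241 to 0.808. Over all probes, SM+MSTF versus control had 0 calls, but 248 without SM+MSTF replicate 3 and 291 with slide as a fixed block. Slide as a fixed block could not be fitted for the comparisons with the SM arrays, which share no slide with another group.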
